A study of Homo sapiens with 33 samples.

Results

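Genes whose products let tumour cells restrain immune cells were followed through 5 days of EGFR blockade in head and neck squamous cell carcinoma (HNSCC) lines, 9 in all: CD274 (PD-L1), PDCD1LG2 (PD-L2), CD276 (B7-H3), VTCN1 (B7-H4), CD47, NT5E (CD73), LGALS9 (galectin-9), PVR (CD155) and TNFRSF14 (HVEM). They were picked by symbol, with earlier results of these data known, and all 9 were found among the 56470 gene symbols of the table. The study sequenced poly(A) RNA of 3 established lines, SCC1 (UM-SCC-1), SCC6 (UM-SCC-6) and SCC25, each given either cetuximab (CTX), a monoclonal antibody that blocks the epidermal growth factor receptor EGFR, at 100 nM or PBS as the untreated control, with the medium renewed daily from a day after seeding. SCC1 and SCC25 were listed as grown with hydrocortisone and the medium listed for SCC6 names none. The methods of the study give 1 medium for all 3 lines and name no hydrocortisone. Differences between SCC6 and the others therefore cannot be told apart from a possible difference of medium. Each line has PBS libraries of days 0 to 5 and cetuximab libraries of days 1 to 5, 33 libraries in all. There is 1 library per line, treatment and day, except in SCC6 with cetuximab, where 2 libraries bear the label day 2 (called 2a and 2b here) and none that of day 1. The libraries of days 1 to 5 therefore stand in for replicates (n = 5 per line and treatment), and the p-values measure the spread between days of 1 culture series per line, not between independent experiments. The cultures were of the lines alone, so that all values are RNA levels in tumour cells, not protein at the surface.

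Checkpoint ligands are surface or secreted proteins that bind inhibitory receptors on lymphocytes and macrophages. CD274 and PDCD1LG2 are the ligands of PD-1 on T cells and sit next to each other on chromosome arm 9p24. CD276 and VTCN1 are B7 family proteins with inhibitory effects on T cells, CD47 gives macrophages a signal through SIRPA not to engulf the cell, and PVR is bound by TIGIT, CD96 and the activating receptor CD226. NT5E is an ectoenzyme that makes adenosine, a suppressor of T cells, from AMP outside the cell, LGALS9 is a secreted galectin that binds TIM-3 among others, and TNFRSF14 binds BTLA and CD160. In squamous carcinoma cells, CD274 is known to be induced by interferon gamma and to be raised by EGFR signalling.

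Library totals ranged from 28508758 to 80727478 estimated counts over days 1 to 5. The 8 epithelial markers (keratins, cadherin and junction genes) summed to between 2446 and 15860 CPM (counts per library size, the usual CPM scale with TMM factors) in every library of days 1 to 5, whereas PTPRC, the common leukocyte antigen, reached at most 0.302 CPM and CD3E at most 0.1 CPM in any library. Of 11 leukocyte markers, 9 or 10 stayed under 1 CPM on average in every group. Of 9 fibroblast and endothelial markers, 8 were under 1 CPM on average in SCC1, and 8 (PBS) or 6 (cetuximab) in SCC6. In SCC25 only 3 (PBS) or 4 (cetuximab) were, and the 9 summed to 77.6 to 86.3 CPM with PBS and 99.95 to 173.4 CPM with cetuximab. Libraries and treatments were not spread evenly over sequencing runs, as read from the flow cell named in each library's title. In SCC1, 4 of 5 PBS libraries shared 1 flow cell and all 5 cetuximab libraries another, which of the PBS libraries held only that of day 5. In SCC6, PBS days 2 to 5 and cetuximab 2a, 2b and day 3 shared 1 flow cell, and in SCC25 all 5 PBS libraries shared 1 with cetuximab days 1 and 2 only. Values within a flow cell, or from a fit with the flow cell as a term, are therefore given beside the results. The libraries also differed in how GC-rich genes stood to GC-poor ones. In SCC6 the median log2 level of the 20% of genes richest in GC minus that of the 20% poorest, relative to the mean of the line, was 0.66 in PBS day 1, 0.89 and 0.50 in cetuximab days 4 and 5, and between -0.55 and -0.06 in the other 7 libraries, and in SCC25 cetuximab day 3 it was -0.72.

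Positions are those of GENCODE on GRCh37. CD274 is at chr9:5450503-5470566 and PDCD1LG2 at chr9:5510531-5571282, both on the plus strand. NT5E is at chr6:86159302-86205509, CD276 at chr15:73976307-74006855, VTCN1 at chr1:117686209-117753582 on the minus strand, CD47 at chr3:107761938-107810709 on the minus strand, PVR at chr19:45147098-45169430, LGALS9 at chr17:25956824-25976586 and TNFRSF14 at chr1:2487078-2496821. Transcript sequence that other genes share limits how reads can be assigned. Of the 31-base words of the LGALS9 reference transcript, 49.3% also occur in transcripts of other genes, chiefly its copies LGALS9C (29.6%) and LGALS9B (24.7%), and of those of PVR 36.5%, chiefly with 1 gene that has no symbol in the annotation. For the other members the share was between 0% and 7.03%. At 60.0% GC, CD276 belonged to the 20% of genes richest in GC, as did LGALS9 at 58.7% and TNFRSF14 at 62.2%, and CD47 at 37.1% and CD274 at 40.7% to the 20% poorest in all 3 lines.

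Promoters are shown for 4 members, CD274 and NT5E because both fell in SCC1 and SCC6, VTCN1 because it rose, and LGALS9 because its levels followed interferon-induced genes. They are RefSeq windows from 250 bases before to 50 after the annotated start (GRCh38.p14), read on the gene's strand, with the motif named in capitals. In CD274 (chr9:5450292-5450591) the capitals mark 2 overlapping matches to the interferon regulatory factor (IRF) element on the minus strand, and in LGALS9 (chr17:27630938-27631237) 1 match. In NT5E (chr6:85449833-85450132) they mark the cyclic AMP response element core TGACGT. In VTCN1 (chr1:117210878-117211177, minus strand) they mark the AP-1 motif TGANTCA, which begins 1 base past the start site.
CD274: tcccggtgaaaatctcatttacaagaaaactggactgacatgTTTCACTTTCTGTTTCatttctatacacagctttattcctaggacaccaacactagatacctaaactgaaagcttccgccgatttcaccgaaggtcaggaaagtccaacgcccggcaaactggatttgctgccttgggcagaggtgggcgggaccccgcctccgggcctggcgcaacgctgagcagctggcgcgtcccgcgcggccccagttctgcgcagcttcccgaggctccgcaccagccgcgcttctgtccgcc
LGALS9: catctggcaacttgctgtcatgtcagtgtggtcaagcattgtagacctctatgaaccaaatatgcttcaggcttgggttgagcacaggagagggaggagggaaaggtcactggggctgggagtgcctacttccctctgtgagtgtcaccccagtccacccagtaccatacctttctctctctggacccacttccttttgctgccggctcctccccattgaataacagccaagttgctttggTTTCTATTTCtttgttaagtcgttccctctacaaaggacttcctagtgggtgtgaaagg
NT5E: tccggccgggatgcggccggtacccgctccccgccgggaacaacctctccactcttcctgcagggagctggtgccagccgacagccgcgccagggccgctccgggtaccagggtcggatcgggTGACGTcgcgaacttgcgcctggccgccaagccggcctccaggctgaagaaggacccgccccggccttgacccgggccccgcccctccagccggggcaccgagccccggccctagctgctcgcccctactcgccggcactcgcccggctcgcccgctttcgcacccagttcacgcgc
VTCN1: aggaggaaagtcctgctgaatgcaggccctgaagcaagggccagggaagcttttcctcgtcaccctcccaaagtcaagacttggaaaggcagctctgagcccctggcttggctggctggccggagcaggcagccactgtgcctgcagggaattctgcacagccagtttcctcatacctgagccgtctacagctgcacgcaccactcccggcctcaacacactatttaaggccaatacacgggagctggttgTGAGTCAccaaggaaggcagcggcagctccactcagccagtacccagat
Searched on both strands, the IRF element occurred in 3.57% of 35116 promoter windows of this length, the CRE core in 7.98% and the AP-1 motif in 7.71%. A GAS element (TTCNNNGAA), found in 7.66% of windows, occurred among the members only in CD274, the IRF element only in CD274 and LGALS9, and the E-box CACGTG (7.26% of windows) in none of the windows of the 8 members with an entry. The AP-2 motif (GCCNNNGGC), found in 23.2% of windows, was also searched. It occurred in the windows of CD274, VTCN1 and CD276 and is not in capitals above. These matches describe letters in the windows and are not binding data.

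Without drug, NT5E was the most abundant of the 9 transcripts in all 3 lines once length was taken into account, and VTCN1 and LGALS9 were among the 3 least abundant. TNFRSF14 was as low in SCC1 and SCC6 but ranked above CD274 and PDCD1LG2 in SCC25 by the reference transcript (3.39 CPM per kb against 1.97 and 3.29) and below both by the union of all annotated exons (0.929 against 1.74 and 3.29). On the scale of CPM per kb of reference transcript, NT5E averaged 87.7 in SCC1, 77.6 in SCC6 and 53.8 in SCC25 (n = 5 PBS libraries each). The second place went to CD276 in SCC1 (24.0) and SCC25 (43.0) and to PVR in SCC6 (31.8). CD274 stood at 10.3, 8.84 and 1.97 in SCC1, SCC6 and SCC25, and VTCN1 at 0.0423, 0.420 and 0.0449. The same gene ranked first when the union of all annotated exons replaced the reference transcript as the length.

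**Figure D1:**
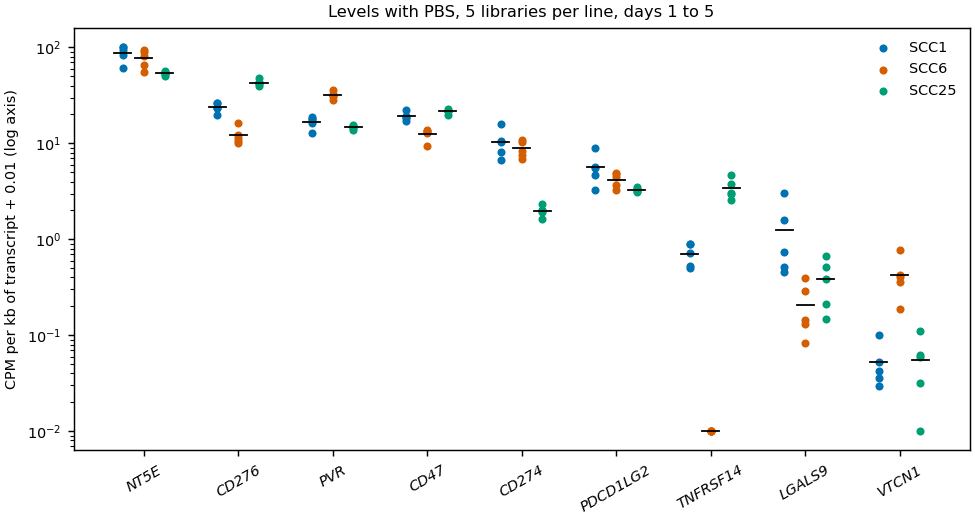
Levels of the 9 genes with PBS, in CPM per kb of reference transcript plus 0.01 on a log axis, with 1 point per library of days 1 to 5 and a bar at the mean of each line. NT5E is highest in every line, CD274 is lower in SCC25 than in the other lines, and TNFRSF14 of SCC6 lies on the floor because it had no counts.

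The lines differed in most members with PBS on days 1 to 5, which is also true of most genes. All 5 PBS libraries of SCC25 were on a flow cell that held no library of another line. On days 1 to 5, untreated SCC1 and SCC6 shared a flow cell only in SCC1 day 5 and SCC6 day 1. Line was thus confounded with flow cell, wholly for SCC25 and in large part between SCC1 and SCC6. No fit of these differences included the flow cell. Of the 9 members, 6 differed between SCC6 and SCC1, 6 between SCC25 and SCC1 and 7 between SCC25 and SCC6, beside 69.1%, 68.4% and 72.1% of all 19744 genes tested (edgeR's quasi-likelihood test, Benjamini-Hochberg adjusted p under 0.05). CD274 was lower in SCC25 than in SCC1 by 5.21-fold (log2 difference -2.38 ± 0.20, SE, adjusted p = 1e-08) and than in SCC6 by 4.5-fold (-2.17 ± 0.20, adjusted p = 2.9e-08), while SCC1 and SCC6 did not differ beyond their spread (adjusted p = 0.33). CD276 ran the other way and was highest in SCC25, 1.80-fold above SCC1 (adjusted p = 3.2e-06) and 3.55-fold above SCC6 (adjusted p = 2.4e-10). For NT5E, SCC25 was lower than both other lines, by 1.62-fold and 1.44-fold, and SCC6 and SCC1 did not differ beyond their spread (adjusted p = 0.31). The order was another in the single day 0 libraries, which are not in this comparison. There NT5E was at 213 CPM in SCC1, 314.6 in SCC6 and 322.5 in SCC25, and CD274 at 15.6, 19.4 and 7.25 CPM. PVR was 1.91-fold higher in SCC6 than in SCC1 and 2.17 times the level of SCC25, and CD47 was lowest in SCC6, 1.53-fold below SCC1. VTCN1 was higher in SCC6 than in SCC1 by 9.54-fold (3.25 ± 0.52, adjusted p = 2.4e-05), from 0.110 ± 0.074 to 1.09 ± 0.55 CPM (SD). PDCD1LG2 was lower in SCC25 than in SCC1 (-0.77 ± 0.20, adjusted p = 0.0021), and its other differences did not pass, unless SCC1 PBS day 1 was left out for SCC6 against SCC1 (-0.57, adjusted p = 0.0065) or low counts were not filtered (-0.48, adjusted p = 0.035), or SCC1 PBS day 5 was left out for SCC25 against SCC6 (-0.35, adjusted p = 0.044). Likewise PVR passed between SCC25 and SCC1 only without SCC1 PBS day 1 (-0.27, adjusted p = 0.0038), and CD47 only without SCC1 PBS day 5 (0.23, adjusted p = 0.044) or SCC6 PBS day 1 (0.17, adjusted p = 0.02). LGALS9 was higher in SCC1 than in both other lines, and its copies had counts too. It was 76.1% of the summed level of LGALS9, LGALS9B and LGALS9C in SCC1, 18.7% in SCC6 and 5.71% in SCC25, where the sum itself was largest (11.4 ± 2.1 CPM against 2.84 ± 2.05 in SCC1, SD). TNFRSF14 set SCC6 apart. No count of it fell in the 5 PBS libraries of SCC6, for which a floor of 3 counts over the group corresponds to 0.0198 CPM, so that the mean level was at least 60.1-fold higher in SCC1 and at least 292-fold higher in SCC25. SCC25 was also 4.88-fold above SCC1 (2.29 ± 0.22, adjusted p = 6.4e-07). The floor covers counting error only.

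Cetuximab lowered NT5E in all 3 lines and CD274 in SCC1 and SCC6, and raised VTCN1 in SCC1 and CD276 in SCC1 and SCC6. VTCN1 also passed the test in SCC6 and SCC25, but in neither with the flow cell in the fit (adjusted p = 0.19 and 0.25). In SCC1, 6 of the 9 members passed the test (3 higher, 3 lower), beside 44.8% of all genes tested (22.7% higher, 22.1% lower). In SCC6, 4 of the 8 members tested did (2 higher, 2 lower), beside 30.1% (15.6% higher, 14.6% lower), and in SCC25 4 of 9 (3 higher, 1 lower), beside 18.3% (8.8% higher, 9.5% lower). The count of SCC25 was 1 with the flow cell in the fit and 7 with the GC trend removed. The shares of all genes called in those fits are not given here, so these counts are no result about the members in particular. PBS and cetuximab libraries of days 1 to 5 did not overlap for 3 members in SCC1 (CD274, VTCN1 and NT5E), beside 31.3% of all genes. The same held for 3 in SCC6 (CD274, CD276 and NT5E), beside 19.1%, and for NT5E alone in SCC25, beside 14.7%. The size of the response differed between the lines for 5 of 9 members (CD274, PDCD1LG2, CD276, VTCN1 and NT5E), beside 26.1% of 21414 genes (F test of the line-by-treatment terms over 30 libraries). By pairs of lines, 4 members differed between SCC6 and SCC1, beside 19.3% of all genes, 4 between SCC25 and SCC1, beside 8.52%, and 3 between SCC25 and SCC6, beside 17.5%.

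**Figure D2:**
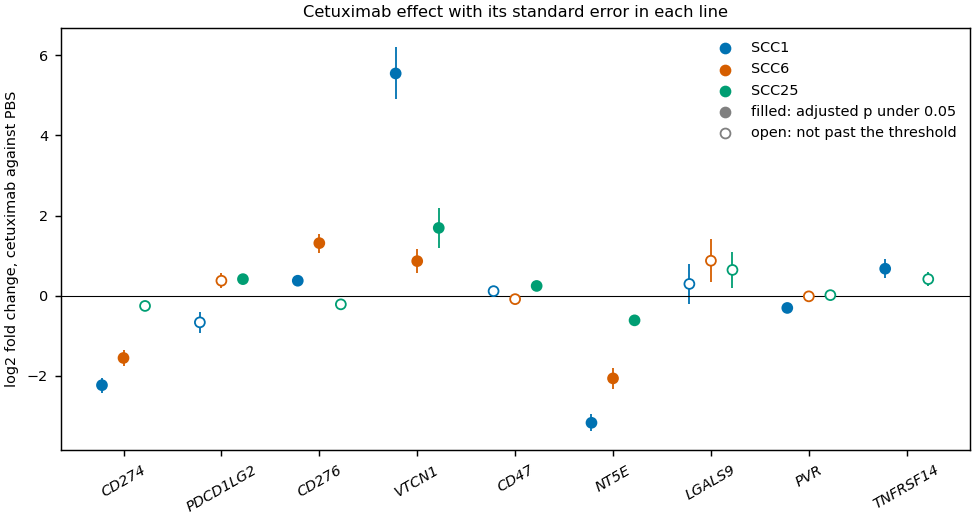
Log2 fold change of cetuximab against PBS for each gene, with its standard error as the bar, in SCC1 (blue), SCC6 (orange) and SCC25 (green). Filled points passed adjusted p 0.05 and open points did not, and TNFRSF14 of SCC6 has no point because it was at 0 counts in 9 of 10 libraries. NT5E is below 0 in all 3 lines and VTCN1 above 0.

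NT5E, the adenosine-producing enzyme, fell furthest in SCC1. Its level with PBS in SCC1 was 216, 334, 356, 356 and 300.3 CPM on days 1 to 5, and with cetuximab 42.0, 43.2, 39.7, 26.4 and 20.4 CPM. The groups lay far apart, and the fall was 9.03-fold (log2 fold change -3.18 ± 0.21, SE, adjusted p = 7.8e-07). In SCC6 it went from 293, 339, 318, 234 and 198 CPM with PBS to 88.7 and 86.1 (2a and 2b), 81.4, 41.2 and 35.9 CPM with cetuximab. This is a 4.20-fold fall (-2.07 ± 0.27, adjusted p = 0.00023), again with no overlap. SCC25 had 203, 190.3, 197, 189 and 178 CPM with PBS and 106, 115, 126, 139.6 and 140.3 CPM with cetuximab. The difference was smallest there, 1.53-fold (-0.62 ± 0.08, adjusted p = 0.00036), and was widest on day 1. Within 1 flow cell the difference of mean log2(CPM + 0.1) was -3.18 in SCC1 (1 PBS library), -1.64 in SCC6 (4 against 3) and -0.79 in SCC25 (5 against 2). Each pair of lines differed in this fall: by 1.13 ± 0.30 between SCC6 and SCC1 (adjusted p = 0.0082), by 2.57 ± 0.31 between SCC25 and SCC1 (adjusted p = 1.5e-06) and by 1.44 ± 0.30 between SCC25 and SCC6 (adjusted p = 0.0012), all on the log2 scale, the last being 0.88 with the flow cell in the fit (adjusted p = 0.058). Over the days of treatment, the level of NT5E declined in SCC1 (-0.28 ± 0.07 log2 per day, adjusted p = 0.04) and in SCC6 (-0.47 ± 0.07, adjusted p = 0.0047) and rose slightly in SCC25 (0.11 ± 0.02, adjusted p = 0.038). Treated SCC6 changed flow cell between days 3 and 4 and treated SCC25 between days 2 and 3, and with the flow cell in the fit the slopes were -0.27 in SCC1 (adjusted p = 0.012), -0.16 in SCC6 (adjusted p = 0.53) and 0.09 in SCC25 (adjusted p = 0.28), so that in the last 2 lines the day cannot be told apart from the flow cell. The slope of SCC1 missed the threshold without PBS day 4 or cetuximab day 1, 2, 4 or 5 (adjusted p from 0.056 to 0.4), and that of SCC25 without any 1 library other than cetuximab day 3 (adjusted p from 0.067 to 0.61).

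CD274 encodes PD-L1, the ligand of PD-1. Its PBS libraries of SCC1 read 24.2, 29.8, 38.4, 37.2 and 57.8 CPM on days 1 to 5, and those with cetuximab 6.93, 8.11, 9.29, 7.85 and 7.32 CPM. Every treated library was below every untreated one, and the fall was 4.71-fold (-2.24 ± 0.19, adjusted p = 3.6e-06). SCC6 gave 25.2, 37.7, 39.6, 30.5 and 27.6 CPM with PBS against 14.4 and 10.1 (2a and 2b), 14.0, 7.63 and 9.18 CPM. There the fall was 2.95-fold (-1.56 ± 0.20, adjusted p = 2e-04), without overlap. In SCC25, where CD274 was already low, PBS libraries had 7.02, 7.05, 8.45, 7.34 and 5.92 CPM and treated libraries 4.43, 5.66, 6.16, 6.96 and 6.87 CPM. The groups overlapped, and the change of -0.26 ± 0.13 did not pass the test (adjusted p = 0.2), although it did once the GC trend was removed (-0.33, adjusted p = 0.036). The response of SCC25 differed from that of SCC1 by 2.00 ± 0.27 (adjusted p = 7.9e-06) and from that of SCC6 by 1.29 ± 0.27 (adjusted p = 0.0011), and that of SCC6 from SCC1 by 0.70 ± 0.26 (adjusted p = 0.061). Within 1 flow cell, the difference of mean log2(CPM + 0.1) was -2.86 in SCC1, -1.39 in SCC6 and -0.50 in SCC25. CD274 also rose with time in untreated SCC1, by 0.28 ± 0.04 log2 per day (adjusted p = 0.0075), beside 2.45% of all genes with a slope past the threshold, and this slope rested on PBS day 5 (0.22, adjusted p = 0.073 without it), the 1 untreated library of SCC1 on the flow cell of the treated ones (0.22, adjusted p = 0.075 with the flow cell in the fit).

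PDCD1LG2, the second PD-1 ligand, passed the test in SCC25, where it was higher, and not in SCC1 or SCC6. In SCC1 every treated library was below the untreated one of its day. It read 7.91, 11.5, 13.5, 13.9 and 21.8 CPM with PBS and 4.59, 7.17, 12.1, 10.1 and 8.79 CPM with cetuximab. The ranges overlapped, and the change of -0.67 ± 0.27 missed the threshold (adjusted p = 0.059) but passed it with the day as a block (-0.66, adjusted p = 0.0069), with the flow cell in the fit (-1.34, adjusted p = 0.019), with the GC trend removed (-0.71, adjusted p = 0.037), with no filter on low counts (-0.68, adjusted p = 0.036) and without PBS day 1 (-0.82, adjusted p = 0.019) or cetuximab day 3 (-0.84, adjusted p = 0.031). SCC6 had 7.83, 10.7, 11.8, 11.7 and 8.91 CPM with PBS and 12.2, 8.73, 18.8, 12.3 and 14.8 CPM with cetuximab (0.37 ± 0.19, adjusted p = 0.17), a change that passed the test only without cetuximab 2b (0.49, adjusted p = 0.048). In SCC25 the treated libraries had 8.27, 8.54, 11.4, 11.9 and 13.3 CPM against 8.42, 7.63, 8.07, 7.76 and 8.12 CPM. That rise of 0.41 ± 0.12 passed the test (adjusted p = 0.04), was largest on days 3 to 5, which were sequenced on another flow cell, and was 0.07 with the flow cell in the fit (adjusted p = 0.68). It also fell below the threshold without any 1 of 8 libraries, all but cetuximab days 1 and 2 (adjusted p from 0.054 to 0.099). Treated SCC25 rose by 0.18 ± 0.03 log2 per day (adjusted p = 0.039), though not without any 1 library other than cetuximab day 3 (adjusted p from 0.074 to 0.5) or with the flow cell in the fit (0.10, adjusted p = 0.43). The response of SCC1 was lower than that of SCC6 by 1.07 ± 0.32 (adjusted p = 0.017) and than that of SCC25 by 1.10 ± 0.32 (adjusted p = 0.027), the latter not without SCC1 PBS day 5, SCC1 cetuximab day 1 or 2, or SCC25 cetuximab day 4 or 5 (adjusted p from 0.051 to 0.078).

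**Figure D3:**
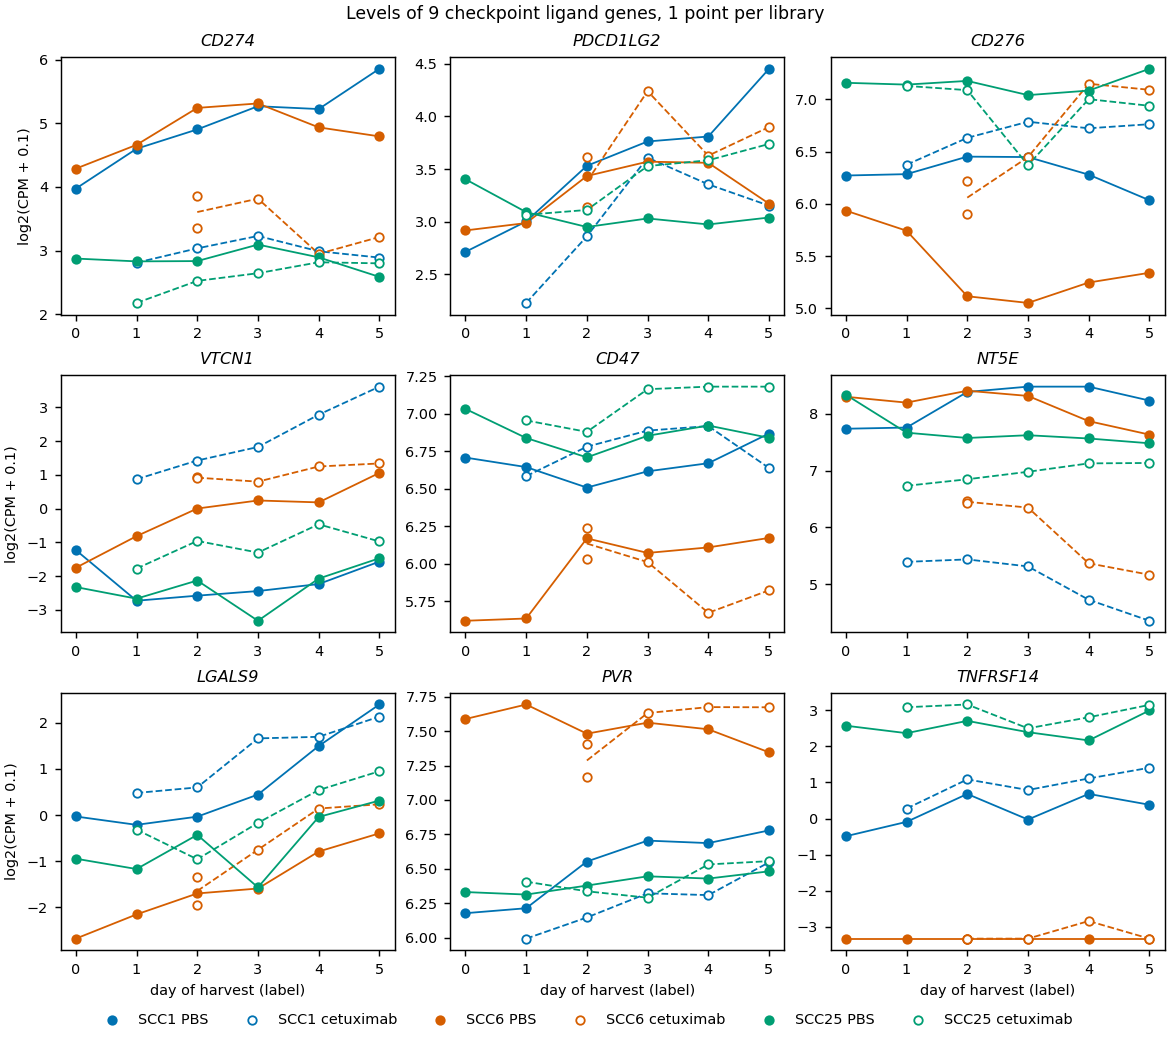
Level of each gene, as log2(CPM + 0.1), against the day of harvest, with 1 point per library (filled and solid for PBS, open and dashed for cetuximab) and colours for the lines. For the 2 SCC6 libraries labelled day 2 the dashed line starts at their mean. NT5E and CD274 separate the treatments in SCC1 and SCC6 from the first treated day, and VTCN1 climbs through all 5 days in treated SCC1.

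VTCN1, a B7 family member, was nearly absent from untreated SCC1 and appeared with cetuximab. Its raw counts there were 2.23, 3, 4, 5 and 11 on PBS days 1 to 5 and 76, 115, 137, 276 and 503 with cetuximab, or 1.73, 2.58, 3.44, 6.77 and 12.1 CPM on treated days. The groups lay far apart and the rise was 46.7-fold (5.55 ± 0.65, adjusted p = 2.7e-05). With the flow cell in the fit it was 4.49 on the log2 scale (adjusted p = 0.02), and within the flow cell of the treated libraries, against PBS day 5 alone, the difference of mean log2(CPM + 0.1) was 3.67. The slope under treatment was 0.71 ± 0.06 log2 per day (adjusted p = 0.00026) and also passed with the flow cell in the fit (0.72). The day 0 library of SCC1, which enters no main comparison here, had 0.327 CPM, above all 5 later PBS libraries. In SCC6 it went from 0.468, 0.901, 1.08, 1.04 and 1.98 CPM with PBS to 1.81, 1.77, 1.64, 2.27 and 2.43 CPM with cetuximab. Untreated SCC6 rose with the days by 0.42 ± 0.09 log2 per day (adjusted p = 0.015), but not without PBS day 1 or 5 (adjusted p = 0.22 and 0.2) or with the flow cell in the fit (0.34, adjusted p = 0.17). The treatment difference of 0.86 ± 0.30 was at the limit of the test (adjusted p = 0.049), fell short of it without any 1 of 9 libraries (all but PBS day 5, adjusted p from 0.052 to 0.12) and was 0.47 with the flow cell in the fit (adjusted p = 0.19). SCC25 had between 0 and 0.261 CPM with PBS, 0 to 13 counts a library, and between 0.192 and 0.624 CPM with cetuximab. The rise of 1.69 ± 0.51 passed the test (adjusted p = 0.039), but not without PBS day 1, 2, 3 or 4 or cetuximab day 2, 4 or 5 (adjusted p from 0.057 to 0.11), and was 1.34 with the flow cell in the fit (adjusted p = 0.25). The response of SCC1 exceeded that of SCC6 by 4.66 on the log2 scale (SCC6 minus SCC1 -4.66 ± 0.71, adjusted p = 1.5e-05) and that of SCC25 by 3.84 (-3.84 ± 0.90, adjusted p = 0.0051), the latter being -3.14 with the flow cell in the fit (adjusted p = 0.19).

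CD276, the second B7 family member, was abundant throughout and rose in SCC6 above all. In SCC6 its levels were 53.4, 34.6, 33.1, 37.9 and 40.4 CPM with PBS and 74.4, 59.6, 87.1, 141.8 and 136 CPM with cetuximab. No treated library reached down to an untreated one of days 1 to 5, and the rise was 2.47-fold (1.31 ± 0.24, adjusted p = 0.0018). The untreated day 0 library of SCC6, at 61.1 CPM, was above cetuximab 2b. The 3 libraries in which GC-rich genes stood highest, PBS day 1 and cetuximab days 4 and 5, were also the highest of their groups for this GC-rich gene. With the GC trend removed the change was 1.03 (adjusted p = 5.2e-05), and within 1 flow cell, without those 3 libraries, the difference of mean log2(CPM + 0.1) was 1.00. Treated SCC6 rose by 0.39 ± 0.08 log2 per day (adjusted p = 0.011), though not without cetuximab 2b (0.33, adjusted p = 0.09). The rise lay between the 3 libraries of 1 flow cell and those of days 4 and 5 on another, so that the day cannot be told apart from the flow cell (0.18, adjusted p = 0.63 with it in the fit). SCC1 rose from 77.8, 87.4, 87.2, 77.6 and 65.4 CPM to 82.8, 99.0, 110.2, 105.5 and 108.4 CPM. The groups overlapped by 1 treated library, day 1, and the change was 0.37 ± 0.09 (adjusted p = 0.0066), or 0.64 with the flow cell in the fit (adjusted p = 0.0085). In SCC25 the values were 141, 144.5, 131.5, 135.5 and 156.6 CPM with PBS and 139.8, 135.9, 82.6, 128 and 122.5 CPM with cetuximab. That difference of -0.22 ± 0.12 did not pass the test (adjusted p = 0.22). The lowest library, cetuximab day 3, was also the one in which GC-rich genes stood lowest, and with the GC trend removed the change was -0.16 (adjusted p = 0.026). Whether GC bias set these levels was not tested. The response of SCC6 was above that of SCC1 by 0.97 ± 0.25 (adjusted p = 0.0054; 0.38 and adjusted p = 0.29 with the flow cell in the fit) and above that of SCC25 by 1.54 (SCC25 minus SCC6 -1.54 ± 0.25, adjusted p = 5.3e-05).

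**Figure D4:**
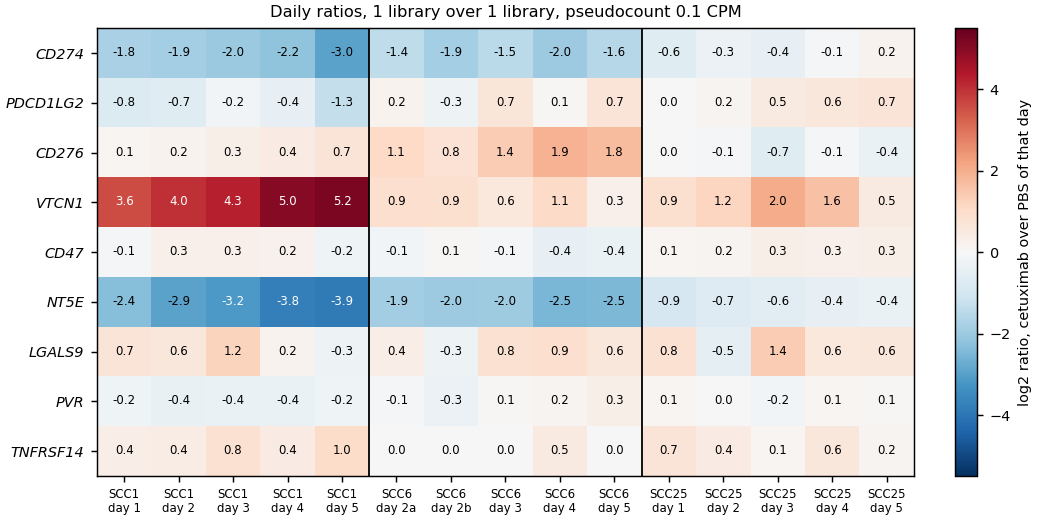
Log2 ratio of each cetuximab library over the PBS library of the same line and labelled day, with 0.1 CPM added to both. Blue is lower and red higher with cetuximab, the printed numbers are the ratios, and each is a ratio of single libraries with no error of its own. The row of NT5E is blue in all 15 columns, running from -0.93 to -0.35 in SCC25, and that of VTCN1 is red in all 15.

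CD47, the signal against phagocytosis, was among the steadiest of the 9. It had 100, 91.0, 98.1, 101.8 and 116.8 CPM in untreated SCC1 and 95.9, 109.9, 118.4, 120.9 and 99.6 CPM in treated SCC1 (0.11 ± 0.08, adjusted p = 0.28). SCC6 had between 49.6 and 72.04 CPM with PBS and between 50.9 and 75.4 CPM with cetuximab (-0.09 ± 0.13, adjusted p = 0.63). Its lowest untreated library, PBS day 1 at 49.6 CPM, was the untreated one in which GC-rich genes stood highest against GC-poor ones, and CD47 is GC-poor. The part of GC content in this level was not tested. In SCC25 the range was 104.6 to 121.2 CPM with PBS and 117.7 to 145.1 CPM with cetuximab. The rise of 0.24 ± 0.07 passed the test (adjusted p = 0.031), not so without any 1 of 5 libraries (PBS days 1 to 3, cetuximab days 4 and 5, adjusted p from 0.055 to 0.083), and it was 0.09 with the flow cell in the fit (adjusted p = 0.45). The response did not pass the test of a difference between lines (adjusted p = 0.21), except with the day as a block (adjusted p = 0.015) or without SCC6 PBS day 1 (adjusted p = 0.04).

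PVR, the ligand of TIGIT, moved little. In SCC1 it had 74.1, 93.8, 104.2, 102.9 and 109.7 CPM with PBS and 63.6, 70.7, 79.9, 79.2 and 93.4 CPM with cetuximab. Every treated library was below the untreated one of its day, but the ranges overlapped. The change of -0.31 ± 0.11 passed the test (adjusted p = 0.038) and lost it without any 1 of 8 libraries (all but PBS day 1 and cetuximab day 5, adjusted p from 0.051 to 0.086) and with the flow cell in the fit (-0.49, adjusted p = 0.078), while it stood at adjusted p = 0.00096 with the day as a block. SCC6 ranged from 162.6 to 207 CPM with PBS and from 143.5 to 204 CPM with cetuximab (-0.02 ± 0.11, adjusted p = 0.92), and SCC25 from 79.4 to 89.3 CPM and from 78.1 to 94.0 CPM (0.01 ± 0.06, adjusted p = 0.92). In SCC1, PVR rose with time in both treatments, by 0.12 ± 0.03 log2 per day with PBS (adjusted p = 0.048) and by 0.13 ± 0.03 with cetuximab (adjusted p = 0.023). The first slope missed the threshold without any 1 library other than PBS day 3 (adjusted p from 0.061 to 0.25), and the second without cetuximab day 1, 2 or 5 (0.062 to 0.3). With the flow cell in the fit they were 0.15 (adjusted p = 0.074) and 0.13 (adjusted p = 0.012). The difference between lines did not pass the test (adjusted p = 0.12), but did with the day as a block (adjusted p = 0.0086) and without SCC1 PBS day 1 (0.033), SCC1 cetuximab day 5 (0.05) or SCC6 cetuximab 2b (0.045).

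TNFRSF14, the ligand of BTLA, was present in SCC1 and SCC25 and essentially unread in SCC6. With cetuximab SCC6 had 3 counts in the library of day 4 and 0 in the other 4. In SCC1 the libraries had 0.840, 1.51, 0.883, 1.51 and 1.21 CPM with PBS and 1.11, 2.02, 1.63, 2.06 and 2.55 CPM with cetuximab. The groups overlapped by the treated library of day 1, the rise was 0.67 ± 0.24 (adjusted p = 0.038), and it fell short without PBS day 1, 3 or 5 or cetuximab day 2, 4 or 5 (adjusted p from 0.062 to 0.11) or with the flow cell in the fit (0.65, adjusted p = 0.32). SCC25 went from 5.05, 6.43, 5.15, 4.38 and 7.86 CPM to 8.38, 8.83, 5.55, 6.89 and 8.77 CPM (0.41 ± 0.17, adjusted p = 0.12). That change passed the test with the day as a block (0.42, adjusted p = 0.026) and with the GC trend removed (0.51, adjusted p = 0.0031), as well as without PBS day 5 (0.56, adjusted p = 0.031) or cetuximab day 3 (0.51, adjusted p = 0.041).

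LGALS9 rose with the days in SCC1 and SCC6, and in no line did its difference between treatments pass the test. In SCC1 it climbed from 0.763 CPM on day 1 to 5.17 CPM on day 5 with PBS and from 1.29 to 4.29 CPM with cetuximab. The slopes were 0.74 ± 0.09 log2 per day (adjusted p = 0.002) and 0.46 ± 0.08 (adjusted p = 0.014). In SCC6 the slopes were 0.60 ± 0.15 with PBS (adjusted p = 0.024) and 0.76 ± 0.14 with cetuximab (adjusted p = 0.0079), on levels of 0.125 to 0.660 CPM and 0.158 to 1.08 CPM. The slopes of SCC25, 0.40 ± 0.15 with PBS and 0.44 ± 0.14 with cetuximab, did not pass (adjusted p = 0.27 and 0.23). With the flow cell in the fit those of SCC1 were 0.64 (adjusted p = 0.026) and 0.46 (adjusted p = 0.0063), and those of SCC6 were 0.60 and 0.49 and did not pass (adjusted p = 0.17 and 0.65). The slope of treated SCC1 missed the threshold without cetuximab day 1 or 5 (adjusted p = 0.16 and 0.14), that of untreated SCC6 without PBS day 1, 4 or 5 (0.052 to 0.21) and that of treated SCC6 without cetuximab 2b (0.06). Cetuximab changed it by 0.29 ± 0.50 in SCC1, 0.87 ± 0.54 in SCC6 and 0.64 ± 0.44 in SCC25, none of which passed the test (adjusted p = 0.67, 0.24 and 0.35). With the flow cell in the fit these values turned to -0.96, -0.32 and -0.22. Summed with LGALS9B and LGALS9C, the mean level went from 2.84 ± 2.05 CPM with PBS to 3.19 ± 1.24 CPM with cetuximab in SCC1 (SD). In SCC6 the sum went from 1.82 ± 0.86 to 1.38 ± 1.03 CPM and in SCC25 from 11.35 ± 2.12 to 10.02 ± 1.21 CPM. The share of LGALS9 in it went from 18.7% to 43.8% in SCC6 and from 5.71% to 10.2% in SCC25. Whether reads were assigned differently among the copies was not tested.

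In the slopes over days as a whole, 3 members passed the test with PBS and 4 with cetuximab in SCC1, beside 2.45% and 4.46% of all genes, 2 and 3 in SCC6, beside 15.6% and 20.1%, and 2 with cetuximab in SCC25 (PDCD1LG2 and NT5E), beside 1.09%. With PBS no member of SCC25 passed (edgeR), beside 2.23% of all genes, 1 had an unadjusted p under 0.05, and DESeq2 called 0. The slopes with PBS and cetuximab differed for 4 members in SCC6, beside 28.2% of all genes: the slope with cetuximab was above that with PBS for CD276 (0.47 ± 0.10, adjusted p = 0.011) and PVR (0.20 ± 0.06, adjusted p = 0.028), and below it for CD47 (-0.23 ± 0.08, adjusted p = 0.044) and NT5E (-0.29 ± 0.09, adjusted p = 0.036). The slopes themselves were -0.08 with PBS and 0.39 with cetuximab for CD276, -0.07 and 0.13 for PVR, 0.09 and -0.14 for CD47 and -0.17 and -0.47 for NT5E, of which those of CD276 and NT5E with cetuximab passed. All 4 of these rested on PBS day 1 of SCC6, without which none passed by the same test (edgeR, adjusted p between 0.075 and 0.26). With the flow cell in the fit none of them passed either (adjusted p between 0.62 and 0.98), and edgeR then called no gene of 17387 in SCC6, for the difference or for the slope with cetuximab. In SCC1 and SCC25 edgeR called no member for a difference of slopes, beside 0.617% and 0% of all genes, 4 and 3 had an unadjusted p under 0.05, and DESeq2 called 2 (CD274 and NT5E of SCC1) and 1.

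The pathways around the members moved as follows. EGFR pathway output, the feedback and immediate early genes of MAP kinase signalling, fell in every line: 11 of 14 genes in SCC1, 13 in SCC6 and 11 in SCC25 were lower and none higher, with median log2 fold changes of -1.91, -1.54 and -0.99 beside 0.02, 0.00 and 0.01 over all genes. These are 78.6%, 92.9% and 78.6% of the list, beside 22.1%, 14.6% and 9.5% of all genes lower. EGR1, a transcription factor of the immediate early response, fell by 3.64, 4.35 and 2.44 on the log2 scale, and DUSP5, a phosphatase of ERK, by 2.11, 2.72 and 1.34.

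Around NT5E, the adenosine list (12 genes of adenosine formation, transport, breakdown and sensing) had 4 of 10 lower and none higher in SCC1, 2 lower and 2 higher of 10 in SCC6, and 2 lower and 2 higher of 12 in SCC25, with medians of 0.01, -0.10 and -0.01. Of the genes tested 40%, 40% and 33.3% were called, beside 44.8%, 30.1% and 18.3% of all genes. ADORA2B, the low-affinity adenosine receptor, fell in all 3 lines (-1.56 ± 0.08, -0.96 ± 0.26 and -0.58 ± 0.07), as did SLC29A1, the adenosine transporter ENT1 (-1.10 ± 0.10, -0.90 ± 0.15 and -0.71 ± 0.10). ENTPD2, which breaks down extracellular ATP, fell in SCC1 (-1.56 ± 0.14), with 0.00 ± 0.31 in SCC6 and -0.08 ± 0.24 in SCC25. The 2 higher genes of SCC6 were ADA (0.63 ± 0.17) and ADORA2A (2.41 ± 0.76, from 0.341 to 1.81 CPM). Those of SCC25 were DPP4 (0.62 ± 0.17) and ENTPD3 (0.59 ± 0.18). ENTPD1 (CD39), which makes the AMP that NT5E uses, averaged 2.31 to 3.21 CPM with PBS and its changes of 0.05 ± 0.13, -0.19 ± 0.15 and 0.12 ± 0.12 did not pass the test.

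Around CD47, SIRPA, its receptor, rose in all 3 lines (0.48 ± 0.08, 1.45 ± 0.22 and 0.28 ± 0.08), and CD24, another signal against phagocytosis, rose in SCC1 (2.47 ± 0.30) and SCC25 (0.47 ± 0.05), with -0.02 ± 0.19 in SCC6. The 8 genes of this list, all tested, had 3 higher and 1 lower in SCC1 (50%), 4 higher in SCC6 (50%) and 3 higher in SCC25 (37.5%), beside 44.8%, 30.1% and 18.3% of all genes called. In SCC6 the largest changes were those of QPCT, a glutaminyl cyclase (1.96 ± 0.26), THBS1, the CD47 ligand thrombospondin-1 (1.79 ± 0.25), and LRP1, a receptor of calreticulin (1.62 ± 0.30). LRP1 also rose in SCC1 (0.82 ± 0.09), where QPCT fell (-0.69 ± 0.12). QPCTL, the enzyme that modifies CD47 for SIRPA binding, had changes of 0.15 ± 0.10, 0.32 ± 0.17 and -0.29 ± 0.15, none past the test.

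Of 24 regulators of PD-L1 RNA or protein, SCC1 had 4 higher and 9 lower, SCC6 had 4 higher and 5 lower, and SCC25 had 1 higher and 5 lower. These are 54.2%, 37.5% and 25% of the list, beside 44.8%, 30.1% and 18.3% of all genes. B3GNT3, a glycosyltransferase that stabilises PD-L1, fell by 1.95, 1.88 and 0.64 on the log2 scale, and MYC by 0.84, 1.16 and 1.04. CD44 fell in all 3 (-1 ± 0.06, -0.56 ± 0.16 and -0.36 ± 0.06). IRF1 rose in SCC1 (0.60 ± 0.08) and SCC6 (0.61 ± 0.16), with 0.14 ± 0.14 in SCC25 (adjusted p = 0.53). JAK2 (0.14 ± 0.12, -0.33 ± 0.17 and 0.11 ± 0.09) and CMTM6, which keeps PD-L1 at the surface (-0.10 ± 0.06, -0.07 ± 0.12 and 0.10 ± 0.07), did not pass the test in any line. Interferon-induced genes had none lower in any line, with 7 of 22 higher in SCC1, 10 of 21 in SCC6 and 3 of 22 in SCC25, and medians of 0.51, 0.83 and 0.45. The shares higher were 31.8%, 47.6% and 13.6%, beside 22.7%, 15.6% and 8.8% of all genes. The guanylate-binding proteins GBP1 and GBP2 passed in all 3 lines. In the order SCC1, SCC6 and SCC25, GBP1 rose by 1.06, 3.20 and 0.95 on the log2 scale and GBP2 by 2.01, 1.52 and 1.46. IFI6 rose in SCC6 (2.20 ± 0.67), with 1.02 ± 0.58 in SCC1 and 0.85 ± 0.42 in SCC25.

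The listed genes around CD274 and PDCD1LG2 on 9p24, from SMARCA2 to KDM4C (chr9:1980290-7175648), showed no common direction. In SCC1 4 of 14 were higher and 2 lower, in SCC6 2 and 4 of 14, and in SCC25 1 and 1 of 15, and the medians were 0.12, -0.11 and 0.11. The shares called were 42.9%, 42.9% and 13.3%, beside 44.8%, 30.1% and 18.3% of all genes. Of other ligands for immune receptors, 9 of 25 were higher and 4 lower in SCC1, 8 and 4 of 25 in SCC6, and 4 and 2 of 28 in SCC25 (52%, 48% and 21.4% called). ICOSLG, the ligand of the co-stimulatory receptor ICOS, was higher in all 3 (0.53, 1.30 and 0.73), TNFSF10 (TRAIL) in SCC1 (1.94 ± 0.34) and SCC25 (1.20 ± 0.29), and CEACAM1 was lower in SCC1 (-1.27) and SCC6 (-2.43), with -0.04 ± 0.22 in SCC25. LGALS1, galectin-1, fell in SCC1 (-1.27 ± 0.20) and rose in SCC6 (0.97 ± 0.13), with -0.03 ± 0.08 in SCC25, and VSIR (VISTA) rose in SCC1 (1.11 ± 0.23), with 0.15 ± 0.21 in SCC6 and -0.08 ± 0.15 in SCC25. NECTIN2, which shares receptors with PVR, rose in SCC1 (0.46 ± 0.10, adjusted p = 0.0029), with 0.24 ± 0.22 in SCC6 and 0.09 ± 0.13 in SCC25. B2M, the light chain of HLA class I, rose in SCC25 (0.36 ± 0.10, adjusted p = 0.028), with 0.43 ± 0.17 in SCC1 and -0.37 ± 0.17 in SCC6.

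**Figure D5:**
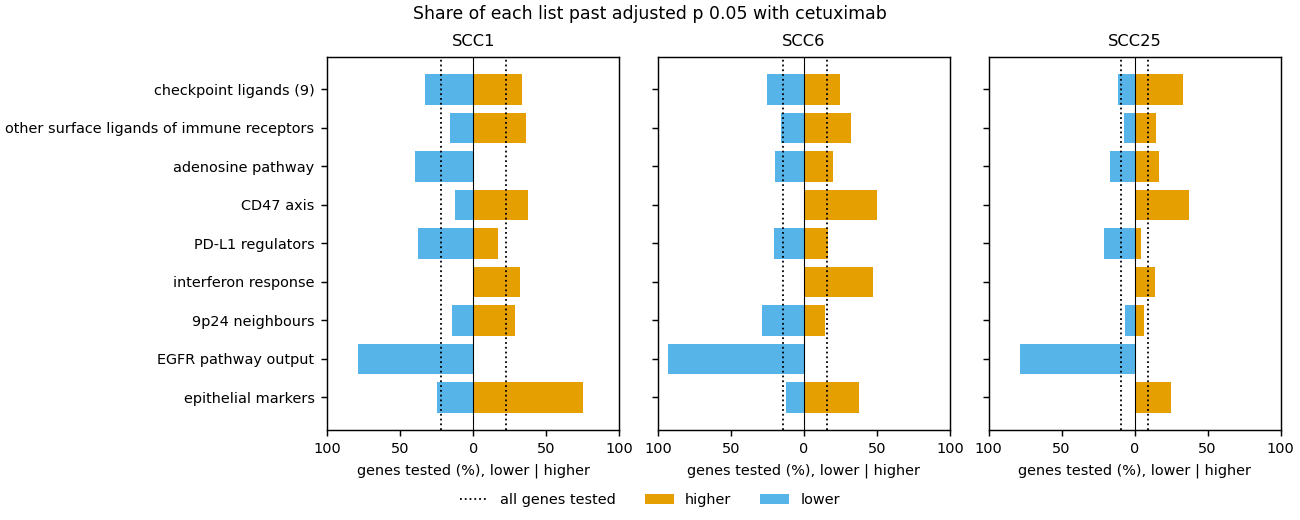
Percent of the tested genes of each list that were higher (orange, right) or lower (blue, left) with cetuximab at adjusted p under 0.05, in each line, with dotted lines at the percent over all genes tested. EGFR pathway output reaches 78.6%, 92.9% and 78.6% lower, and the interferon list has no bar to the left in any line.

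Markers of cell identity moved as well. All 8 epithelial markers passed the test in SCC1 (6 higher, 2 lower), 3 were higher and 1 lower in SCC6, and 2 were higher in SCC25. These are 100%, 50% and 25% of the list, beside 44.8%, 30.1% and 18.3% of all genes. KRT5, a basal keratin, rose by 2.58 in SCC1 and 2.35 in SCC6 on the log2 scale. In SCC6 it averaged 2.38 CPM with PBS and 12.3 CPM with cetuximab. EPCAM was lower in SCC1 (-0.73) and SCC6 (-0.93), and ITGA6 in SCC1 (-0.38). CD68, the only leukocyte marker above 10 CPM in any library, fell (-2.15, -1.89 and -0.31). Of the fibroblast and endothelial markers, 2 of 4 tested were higher in SCC1, 2 of 3 in SCC6, and 2 of 8 with 1 lower in SCC25. These are 50%, 66.7% and 37.5% called, beside the same shares of all genes. The higher ones were DCN (2.88) and COL1A1 (1.72) in SCC1 and PDGFRB (5.6) and COL1A1 (3.72) in SCC6. In SCC25 they were COL3A1 (1.62) and DCN (0.98). DCN averaged 0.129 CPM with PBS and 0.948 CPM with cetuximab in SCC1, and PDGFRB 0.076 and 3.95 CPM in SCC6. Of the 10 leukocyte receptors that bind these ligands, 8 or 9 stayed under 1 CPM on average in every group, the exception in all groups being SIRPA. The part of such markers in the members' changes was not tested.

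Members differed in which genes they resembled across the 30 libraries of days 1 to 5, after the mean of each line was removed (Pearson's r on log2 CPM over 12551 genes, libraries sharing lines, days and treatment). The closest to CD274 were DCBLD2 (r = 0.97), IL1B (0.96) and SEMA3A (0.96), and to NT5E the pseudogene AADACP1, STEAP1 and AADAC (0.98 each). CD274 and NT5E were themselves at r = 0.95, whereas CD274 and its neighbour PDCD1LG2 were at 0.38. VTCN1 ran opposite to NT5E (-0.87) and CD274 (-0.76), and was closest to ARHGEF37 (0.95), IFI30 (0.94) and GRAMD2 (0.94). For LGALS9 the nearest were the interferon-induced OAS1, IFI44L and USP18 (0.92 each), for CD276 MKL1 (0.96), PTK7 (0.96) and CABIN1 (0.95), and for CD47 EFR3A (0.93), EXOC1 (0.89) and SNX13 (0.89). PDCD1LG2 was nearest to DNAJB9 (0.94), NUCB2 and THSD4 (0.84 each), PVR to TSPAN14 (0.86), TINAGL1 (0.85) and MGLL (0.83), and TNFRSF14 to LRPAP1 (0.81), RNF135 (0.80) and MYH14 (0.79).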

How the data were processed

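Poly(A) RNA libraries of 3 HNSCC lines (33 samples) were analysed from a table of estimated counts per gene symbol, which the authors made from the reads with Salmon 0.8.2 and tximport. The submitters' notes name the builds hg19 and GRCh37, and the annotation is not given in the sources used here. The deposited estimated counts were rounded to whole numbers and, per line, cetuximab and PBS libraries of days 1 to 5 were compared with edgeR 4.0.16 (R 4.3.3; filterByExpr, TMM, quasi-likelihood F test, Benjamini-Hochberg over all genes tested, threshold 0.05), since the labels give no replicates within a day. The SE of a log2 fold change is its size over the square root of F. Lines were compared in 1 fit of 30 libraries by line-by-treatment terms, PBS libraries across lines in another, and slopes over days within each line. CPM values are on library sizes scaled by TMM over all 33 libraries. Alternatives were DESeq2 1.42.0, its size factors, no filter, a fold threshold, the day as a block, the flow cell as a covariate, a GC trend removed by a spline with 5 degrees of freedom (GC known for 82.7% to 84.5% of genes), day 0 added, and each library left out. The day pairs libraries by label, and deviations of cetuximab libraries correlated with those of PBS of their day at r from -0.06 to 0.29. Genes named from the lists were taken from those with the largest changes past the threshold, at most 4 per list and line. Genes under 1 in mean log2 CPM were left out. Named besides these were JAK2, CMTM6, IRF1, QPCTL, ENTPD1, NECTIN2, B2M, ADORA2A, DCN, PDGFRB and ITGA6, and not every such gene is named. One of them is not reported here. The members and lists were chosen with earlier results of these data known. The procedure was tested on simulated data.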

Additional observations from a re-analysis of the deposited data

Results flagged for a closer look

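In all, 2 libraries stood far from the other 4 of their group, among 53 groups of 5 libraries examined, where chance gives about 1 in 20. CD47 in SCC6 PBS day 1 was at 49.6 CPM, below the 67.2 to 72.04 CPM of the other untreated libraries of SCC6. TNFRSF14 in SCC6 cetuximab day 4 was at 0.0401 CPM, from 3 counts, with 0 in the others.

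The cetuximab effect of a member differed between a pair of lines in 11 of 27 tests by the line-by-treatment term of edgeR (log2 differences of log2 fold changes). Between SCC6 and SCC1 these were PDCD1LG2 (1.07), CD276 (0.97), VTCN1 (-4.66) and NT5E (1.13), 4 of 9 members beside 19.3% of all genes. Between SCC25 and SCC1 they were CD274 (2.00), PDCD1LG2 (1.10), VTCN1 (-3.84) and NT5E (2.57), beside 8.52%. Between SCC25 and SCC6 they were CD274 (1.29), CD276 (-1.54) and NT5E (1.44), beside 17.5%.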

How the results depend on the processing

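The calls of NT5E in all 3 lines, of CD274 and CD276 in SCC1 and SCC6 and of VTCN1 in SCC1 passed the threshold under DESeq2, its size factors, no filter, the day block, the flow cell, the GC trend, day 0 added and each library left out. Among values of single members (of slopes and of pairs of lines, only those past the threshold), those that kept side and direction were 88 of 88 with DESeq2, which gave 3 others no adjusted p, VTCN1 in SCC25 among them, 91 of 91 with its size factors, 86 of 91 with no filter, 40 of 46 with the GC trend removed, 1309 of 1445 on leaving out 1 library and 36 of 64 with the flow cell, where 21 lost the call, 6 turned direction and 1 gained it. The GC settings and the slopes with the flow cell were chosen after seeing the data.

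Members past the test and a fold threshold of 1 on the log2 scale were 3 in SCC1 and 1 in SCC25, fewer by construction. For the other changes the cause was not tested. In SCC25 the flow cell left 1 member and the GC trend 7, with the block also 7, given without the shares of all genes in those fits. DESeq2 called 2 differences of slopes in SCC1 and 1 in SCC25, no filter 2 in SCC1, and no filter left 0 slopes in treated SCC25. With the flow cell in the fit of slopes (edgeR), 1 member passed in untreated SCC1 (LGALS9), 1 in untreated SCC6 (NT5E), 0 in treated SCC6 and treated SCC25, and for differences of slopes 1 in SCC1 (NT5E) and 0 in SCC6. With day 0 added, 5 slopes passed in untreated SCC6 and 1 in untreated SCC25. Leaving out 1 library gave 1 to 4 members for treatment in SCC25, and for slopes 1 to 3 in untreated and 1 to 4 in treated SCC1, 0 to 3 and 1 to 5 in SCC6 and 0 to 2 in treated SCC25, and for differences of slopes 0 to 1 in SCC1, 0 to 4 in SCC6 and 0 to 1 in SCC25.

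With the day as a replicate block, 41 of 46 values kept side and direction, PDCD1LG2 in SCC1 (-0.66) and TNFRSF14 in SCC25 (0.42) passed, as did the line differences of CD47 (adjusted p = 0.015) and PVR (0.0086), and PVR in SCC6 turned to 0.05, not past the test. The difference of slopes of NT5E in SCC6 turned from -0.29 to 0.13 with the flow cell (adjusted p = 0.75). Other values that turned direction, none of them past the test in either fit, were with the flow cell CD47 in SCC1 (-0.09), LGALS9 in SCC1 (-0.96), SCC6 (-0.32) and SCC25 (-0.22) and PVR in SCC25 (-0.04), with the GC trend CD47 in SCC6 (0.02) and PVR in SCC25 (-0.001, with the block -0.003), and with day 0 VTCN1 in untreated SCC25 against SCC1 (-0.36). Leaving out 1 library, PVR ran from -0.07 to 0.05 in SCC6 and from -0.01 to 0.05 in SCC25, and VTCN1 of untreated SCC25 against SCC1 from -0.44 to 0.57. The fewest counts a library stood behind VTCN1 in untreated SCC1 (2 to 11) and SCC25 (0 to 13), LGALS9 in untreated SCC6 (4 to 18) and TNFRSF14 in SCC6 (0 to 3), and how depth limits detection was not tested.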

Other observations

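The PBS libraries of day 0, 1 per line, entered no main comparison, only the alternative fits with day 0 added. NT5E stood at 322.5 CPM in SCC25 on day 0, above its 178 to 203 CPM on later untreated days, and at 213 CPM in SCC1, just below its 216 to 356 CPM. CD274 was at 15.6 CPM in SCC1 and 19.4 CPM in SCC6, in both lines below all 5 later untreated libraries, and at 7.25 CPM in SCC25, within their range. VTCN1 was at 0.197 CPM in SCC6, below the 0.468 to 1.98 CPM of later days. CD276 was at 61.1 CPM in SCC6, above its 33.1 to 53.4 CPM on later untreated days and the 59.6 CPM of cetuximab 2b. These are single libraries with no replicate.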
